A study of Mus musculus with 24 samples.

Results

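The 9 genes described here encode acyl-CoA synthetases that act on fatty acids of different chain length: the long-chain enzymes Acsl1, Acsl3, Acsl4 and Acsl5, the medium-chain enzymes Acsm1, Acsm3 and Acsm5, and the family members Acsf2 and Acsf3. They were chosen by gene name, and all array probes that carry one of these names were taken. The array held 24 such probes among 56605, and the 9 genes stood among 17215 genes that were tested. Of the 24 probes, 23 passed a filter on dim signal, and each of the 9 genes kept at least 1 probe. The study hybridised RNA of whole liver, taken from male mice of the C57Bl/6J background at 8 weeks, on 1-colour microarrays. All mice had been housed from birth under a cycle of 12 h light and 12 h dark on the same chow, and were killed at ZT16. The groups were 6 PPARaLKO mice (LKO, a knockout of Ppara in the liver) fasted for 24 h, 6 LKO mice fed ad libitum, 5 PPARaLWT mice (LWT, the liver wild type) fasted for 24 h and 5 LWT mice fed ad libitum. The series description gives 24 mice and 6 per group, whereas the sample labels number 22 animals, with 1 fasted and 1 fed LWT animal hybridised on 2 arrays each, and the labels were followed. The line or promoter that deleted Ppara and the part of the gene that was removed are not given in the sources used here.

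A fatty acid cannot be oxidised or built into a lipid until an acyl-CoA synthetase has joined it to coenzyme A at the cost of ATP. The enzymes differ in the chain length they prefer and in the membrane or compartment that holds them, so the same fatty acid can be steered to mitochondria, to the endoplasmic reticulum or to lipid droplets. In liver the nuclear receptor PPARalpha, the product of Ppara, is activated by fatty acids and is known for raising genes of fatty acid oxidation during fasting, Acsl1 among them.

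Levels are log2 intensities relative to the 75th percentile of each array, so that 0 is that percentile, and a gene was called when its limma adjusted p was below 0.05 over all 17215 genes. That percentile lay between 309.7 and 412.6 intensity units, and between 50% and 58.8% of probes were well above background on an array. Ppara served as a check of the labels. Levels of its representative probe in fasted LKO livers ran from 5.38 to 5.72 with a median of 5.65, against 6.52, 6.53, 6.49, 6.60 and 6.26 in fasted LWT livers. In fed livers Ppara ran from 4.47 to 5.51 with a median of 5.26 in LKO, against 5.71, 5.55, 5.88, 5.97 and 6.07 in LWT. The genotypes did not overlap in either state, and Ppara was 1.84-fold lower in fasted LKO (adjusted p = 4.6e-05) and 1.59-fold lower in fed LKO (adjusted p = 0.00609), or 1.45-fold without fed LKO replicate 3 (adjusted p = 0.00237). A second Ppara probe gave log2 differences of -1.01 and -0.85. On the representative probe Ppara still rose with fasting in LKO, by 0.44 on the log2 scale (adjusted p = 0.00911). Without fed LKO replicate 3 this rise was 0.30 (adjusted p = 0.0124). In LWT it rose by 0.64 (adjusted p = 0.00114), and the difference of these responses was not called (-0.21, adjusted p = 0.522). The second probe rose by 0.53 in LKO (adjusted p = 0.00218). Whether these probes lie in the deleted part is not given in the sources used here. The 10 hepatocyte markers were all measured, with a summed log2 level between 12.82 and 12.92 in fasted LKO and between 12.82 and 12.90 in fasted LWT. One library stood apart: fed LKO replicate 3 was the lowest of its 6 animals for Ppara, Acsl1, Acsl4, Acsm3 and Acsm5. It was the highest of them for Acsl3 and Acsf2, and some values are also given without it. In whole liver, fewer cells of a type and less RNA per cell cannot be told apart.

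Several of the genes were read by more than one 60-base probe, and the size or direction of the change between fasted genotypes differed between the probes of Acsl1, Acsl4, Acsl5 and Acsf2. Calls of Acsm3 and Acsf3 depended on the probe as well, as given further on. The first 30 bases of the probes of Acsl1, Acsl4, Acsl5 and Acsf2 are shown 5′ to 3′ with the mm9 position of the whole probe from the array file. Whether a probe lies in coding sequence or in an untranslated region is not given in that file. Each gene's representative probe is the one with the highest mean level, and capitals mark bases that belong to a second probe of the same gene. The probe of Acsl5 that spans 589 bases of genome for its 60 bases is split over more than one stretch of the chromosome.
Acsl1, representative, chr8:47621232-47621291, + strand: gcctaacttcatactcgtattcttaattgc
Acsl1, second probe, chr8:47620082-47620141, + strand: ggggaacccataaaagtgctaagttattta
Acsl1, upstream probe, chr8:47601866-47601925, + strand: tgctgcaaatagtggaggttatgtttgttc
Acsl4, representative, chrX:138752602-138752661, − strand: ctgttaaaatgcacgattgtaggattgttc
Acsl4, upstream probe, chrX:138755214-138755273, − strand: gagttgaagaaccattATCTCAAAGACATT
Acsl4, overlapping probe, chrX:138755198-138755257, − strand: ATCTCAAAGACATTGAGCGAATGTATGGGG
Acsl5, representative, chr19:55368743-55369331, + strand: gcagccaagatcggggtaaagggatcattt
Acsl5, downstream probe, chr19:55372112-55372171, + strand: tgacctcaatggctgcctccctggtcttga
Acsf2, representative, chr11:94418548-94418607, − strand: agatctgagtttgattcctagcacccacat
Acsf2, middle probe, chr11:94419605-94419664, − strand: aattcaaactccgagagcagatggaacagc
Acsf2, upstream probe, chr11:94420849-94420908, − strand: ttgatggatgaacagggcttctgcaagatc
The upstream and overlapping Acsl4 probes share 44 genomic positions, so they are not independent readings.

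Among the long-chain enzymes, Acsl1 and Acsl5 were lower in fasted LKO than in fasted LWT livers, while Acsl3 and Acsl4 were not called there. Acsl1 encodes the long-chain synthetase best known in liver, on the outer mitochondrial membrane and the endoplasmic reticulum. Its log2 level in fasted LKO livers ran from 6.56 to 7.32 with a median of 6.91, against 8.45, 8.58, 8.56, 8.40 and 8.28 in fasted LWT livers. In fed livers it ran from 6.52 to 7.72 with a median of 7.49 in LKO, against 7.68, 7.52, 7.62, 7.83 and 7.33 in LWT. Every fasted LWT animal thus lay above every animal of the other groups. With fasting Acsl1 rose 1.81-fold in LWT (log2 difference 0.86, SE 0.18, adjusted p = 0.000525) and fell by 0.42 on the log2 scale in LKO (SE 0.16, adjusted p = 0.0376). In fasted livers it was 2.91-fold lower in LKO (log2 difference -1.54, SE 0.17, adjusted p = 5.66e-07). When fed, the genotypes overlapped (log2 difference -0.27, SE 0.17, adjusted p = 0.488), and without fed LKO replicate 3 the difference was -0.10 (adjusted p = 0.755). The response to fasting in LKO minus that in LWT was -1.28 (SE 0.24, adjusted p = 0.000958). The fall with fasting in LKO was not called after quantile normalization (adjusted p = 0.0873) and had the other sign on 1 of the 3 slides (0.10, against -0.58 and -0.78), whereas without fed LKO replicate 3 it was -0.58 (adjusted p = 0.000564). Its call was lost when any 1 of 7 other LKO animals was left out (adjusted p between 0.0667 and 0.0972). These values are of the representative probe. With fasting in LKO the second Acsl1 probe gave -0.58 (adjusted p = 0.0193) and the upstream probe -1.29 (adjusted p = 0.00179), both called. The upstream probe is far dimmer and annotated to another transcript, as given further on.

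Acsl5, whose enzyme is known from mitochondria and the endoplasmic reticulum of liver and intestine, did not follow Acsl1 in LWT livers. Its log2 level in fasted LKO livers ran from 3.11 to 3.44 with a median of 3.30, against 4.44, 4.63, 4.47, 4.31 and 4.43 in fasted LWT livers. Fed LKO livers ran from 4.39 to 4.92 with a median of 4.51, against 4.36, 4.81, 4.82, 4.33 and 4.92 in fed LWT livers. Fasted LKO was the single low group, below all 16 animals of the other 3 groups, which overlapped each other. Acsl5 fell 2.46-fold with fasting in LKO (log2 difference -1.30, SE 0.11, adjusted p = 6.28e-09) and was not called with fasting in LWT (-0.19, SE 0.12, adjusted p = 0.194). In fasted livers it was 2.26-fold lower in LKO (-1.17, SE 0.11, adjusted p = 8.58e-08). The difference of the responses was -1.10 (SE 0.16, adjusted p = 8.35e-05). Within each of the 3 slides the fasted difference between genotypes lay between -1.23 and -1.13.

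Acsl4, whose enzyme prefers arachidonic acid and other polyunsaturated fatty acids, went down with fasting in both genotypes. Its log2 level in fasted LKO livers ran from 3.69 to 4.34 with a median of 4.04, and in fed LKO livers from 4.42 to 4.70 with a median of 4.58, with no overlap. In LWT livers it was 3.95, 4.55, 3.90, 3.72 and 4.01 when fasted, against 4.59, 4.60, 4.46, 3.95 and 4.40 when fed, and these groups overlapped. The log2 difference with fasting was -0.52 in LKO (SE 0.13, adjusted p = 0.00259) and -0.37 in LWT (SE 0.14, adjusted p = 0.0429). The LWT call was lost when any 1 of 8 LWT animals was left out, with adjusted p between 0.0658 and 0.122. The 2 responses differed by -0.15 (SE 0.20, adjusted p = 0.665).

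Acsl3 encodes a synthetase of the endoplasmic reticulum and of lipid droplets, and it was the member with no call in any comparison. Its log2 level ran from -0.87 to -0.08 with a median of -0.36 in fasted LKO livers, and was -0.59, -0.42, -0.68, -0.59 and -0.47 in fasted LWT livers. Fed LKO livers ran from -0.80 to 0.18 with a median of -0.36, and fed LWT livers had -0.37, -0.12, -0.15, -0.39 and 0.29. Fasted and fed LWT animals did not overlap, yet the difference of -0.40 (SE 0.17) had an adjusted p of 0.0624. The call was gained when any 1 of 5 animals was left out (adjusted p between 0.0416 and 0.0497, lowest estimate -0.46), fed LKO replicate 3 among them. It was gained as well in the authors' deposited table of log2 values (-0.38, adjusted p = 0.048) and with only the LWT groups in the fit (adjusted p = 0.022), and adjusted p ran from 0.022 to 0.307 over the alternatives.

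The medium-chain enzymes, which activate shorter fatty acids inside mitochondria, split in the same way, with Acsm3 and Acsm5 lower in fasted LKO livers and Acsm1 not called. Acsm3 had log2 levels from 3.43 to 3.85 with a median of 3.64 in fasted LKO livers, against 4.71, 4.51, 4.53, 4.67 and 4.58 in fasted LWT livers. In fed livers it ran from 3.06 to 3.83 with a median of 3.67 in LKO, against 4.10, 3.82, 3.95, 4.26 and 4.02 in LWT. The fasted genotypes were separate, and the fed ones met only at their edges. Acsm3 was 1.95-fold lower in fasted LKO (-0.96, SE 0.11, adjusted p = 9.68e-07) and, as the single member called between fed genotypes, 1.35-fold lower in fed LKO (-0.43, SE 0.11, adjusted p = 0.0318). The fed value was -0.32 without fed LKO replicate 3 (adjusted p = 0.0252), and its call was lost with slide as a block (adjusted p = 0.0566). It lay between -0.81 and -0.16 within slides, and leaving out fed LWT replicate 1, 3, 4 or 5 lost the call (adjusted p between 0.0517 and 0.0886). With fasting Acsm3 rose 1.49-fold in LWT (0.57, SE 0.12, adjusted p = 0.000437) and was not called in LKO (0.04, SE 0.11, adjusted p = 0.809), and these responses differed by -0.54 (SE 0.16, adjusted p = 0.0218).

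Acsm5 had log2 levels from 2.93 to 3.35 with a median of 3.25 in fasted LKO livers, against 3.97, 3.63, 3.80, 3.99 and 3.82 in fasted LWT livers, with no overlap. In fed livers it ran from 3.03 to 3.75 with a median of 3.58 in LKO, against 3.73, 3.62, 3.54, 3.63 and 3.58 in LWT. The fed genotypes overlapped. Acsm5 was 1.58-fold lower in fasted LKO (-0.66, SE 0.11, adjusted p = 8.05e-05). It fell with fasting in LKO (-0.35, SE 0.10, adjusted p = 0.00849) and was not called in LWT (0.23, SE 0.11, adjusted p = 0.117), and the responses differed by -0.57 (SE 0.15, adjusted p = 0.0134). Without fed LKO replicate 3 the fall in LKO was -0.45 (adjusted p = 0.000121), and the LWT response passed the threshold with the same estimate (adjusted p = 0.0354).

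Acsm1 moved with feeding state and not detectably with genotype. Its log2 level ran from 4.83 to 5.24 with a median of 5.21 in fasted LKO livers, and from 5.46 to 5.77 with a median of 5.67 in fed LKO livers. In LWT livers it was 5.16, 5.07, 5.20, 5.24 and 5.20 when fasted, against 5.64, 5.59, 5.51, 5.48 and 5.50 when fed. Fasted and fed animals did not overlap in either genotype. Acsm1 fell by 0.49 on the log2 scale in LKO (SE 0.07, adjusted p = 3.53e-06) and by 0.37 in LWT (SE 0.07, adjusted p = 0.000344). The genotype difference was -0.02 in fasted livers (SE 0.07, adjusted p = 0.818) and 0.10 in fed livers (SE 0.07, adjusted p = 0.527).

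Acsf3 encodes a mitochondrial enzyme that activates malonate, and it had the smallest standard errors of the 9 genes. Its log2 level ran from 3.60 to 3.80 with a median of 3.67 in fasted LKO livers, against 4.57, 4.47, 4.41, 4.29 and 4.55 in fasted LWT livers. Fed livers ran from 3.75 to 3.95 with a median of 3.86 in LKO, against 3.86, 3.84, 3.79, 4.07 and 3.76 in LWT. All 5 fasted LWT animals lay above the other 17, and the fed groups overlapped. Acsf3 rose 1.51-fold with fasting in LWT (0.60, SE 0.07, adjusted p = 4.3e-07), whereas in LKO it fell by 0.17 on the log2 scale (SE 0.06, adjusted p = 0.0215). In fasted livers it was 1.70-fold lower in LKO (-0.77, SE 0.06, adjusted p = 9.24e-09), and the responses differed by -0.77 (SE 0.09, adjusted p = 7.51e-06). The fall in LKO was not called without fasted LKO replicate 2 (adjusted p = 0.0504) or without fed LKO replicate 6 (adjusted p = 0.0509).

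Acsf2, a mitochondrial member of the family with medium-chain substrates, had log2 levels from 2.90 to 3.24 with a median of 2.95 in fasted LKO livers, against 3.39, 3.22, 3.35, 3.36 and 3.47 in fasted LWT livers. In fed livers it ran from 2.91 to 3.18 with a median of 3.00 in LKO, against 3.26, 3.14, 3.02, 3.36 and 2.96 in LWT. Fasted LKO and fasted LWT animals overlapped, and fed LKO and fasted LWT were the single pair of groups without overlap. On this representative probe it was 1.27-fold lower in fasted LKO (-0.34, SE 0.08, adjusted p = 0.00168). It rose with fasting in LWT (0.21, SE 0.08, adjusted p = 0.0426), a call lost when any 1 of 7 LWT animals was left out (adjusted p between 0.0647 and 0.124), and it was not called with fasting in LKO (-0.01, SE 0.07, adjusted p = 0.956).

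**Figure D1:**
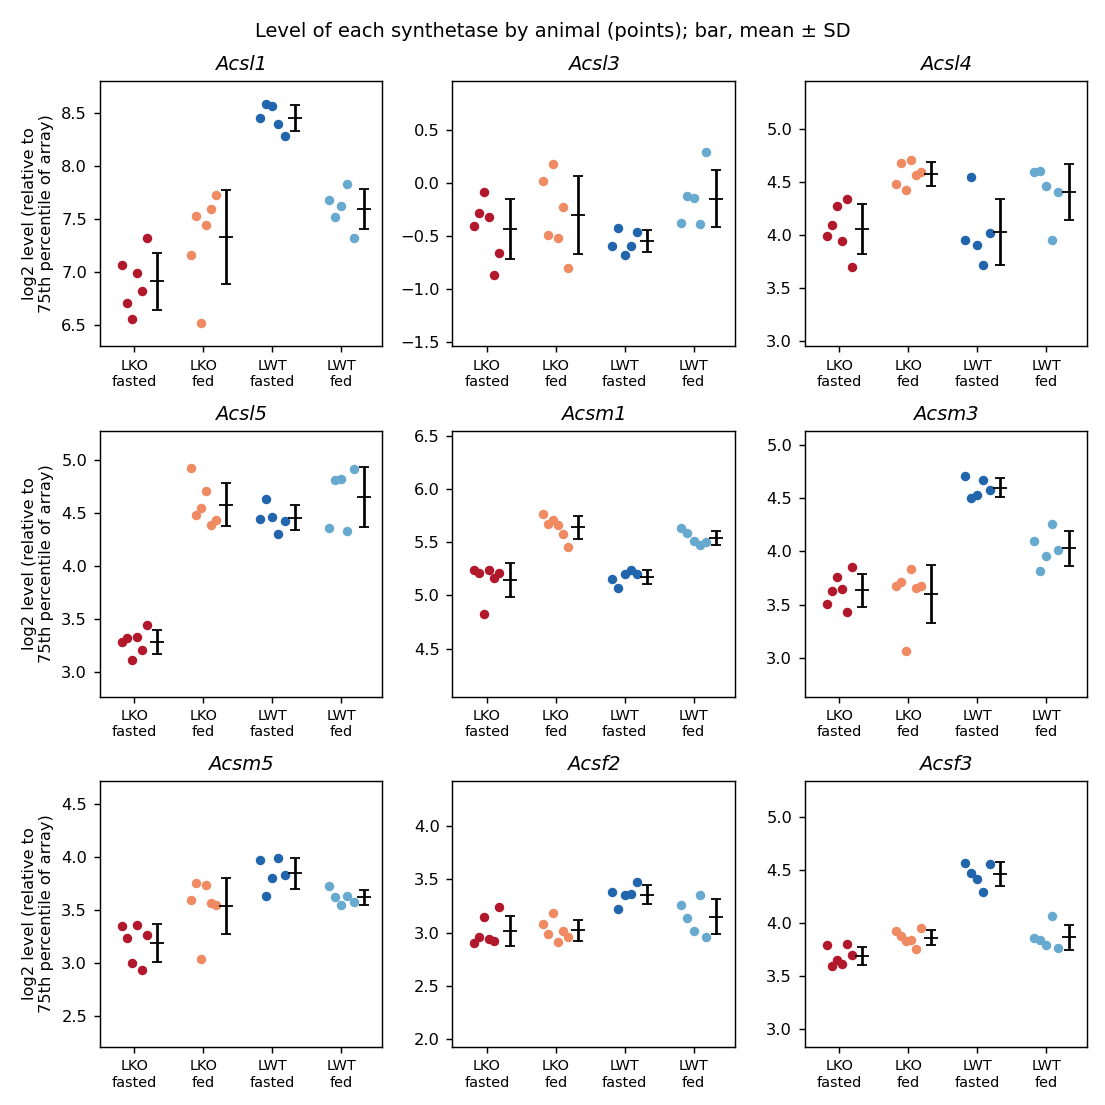
Log2 level of the representative probe of each gene (y axis, relative to the 75th percentile of the array) in each animal (points) of the fasted LKO, fed LKO, fasted LWT and fed LWT groups (x axis), with mean and SD as bars. Acsl1, Acsm3 and Acsf3 are highest in fasted LWT livers, Acsl5 is low in fasted LKO livers alone, and Acsl4 and Acsm1 are lower in fasted than in fed livers of both genotypes.

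Ordered by group mean, Acsl1, Acsm5, Acsf2 and Acsf3 ran upwards as fasted LKO, fed LKO, fed LWT and fasted LWT. However, the means of the LKO groups for Acsf2 and of the fed groups for Acsm5 and Acsf3 differed by less than their SE. In these 4 genes fasted and fed LKO animals overlapped, as did fed LKO and fed LWT animals. Fed LWT and fasted LWT animals did not overlap for Acsl1 and Acsf3, and did so for Acsm5 and Acsf2. Acsm3 kept that order except that fasted LKO averaged 3.64 and fed LKO 3.60, which did not differ beyond their spread. For Acsl5 the order was fasted LKO, fasted LWT, fed LKO and fed LWT, and only the first step was free of overlap. For Acsl4 and Acsm1 both fasted groups stood below both fed groups, with overlap between genotypes at each state. Acsl3 ran upwards as fasted LWT, fasted LKO, fed LKO and fed LWT, and each neighbouring pair overlapped.

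Counted over the 9 genes, 6 were lower and none was higher in fasted LKO than in fasted LWT livers: Acsl1, Acsl5, Acsm3, Acsm5, Acsf2 and Acsf3. Among all genes tested, 21.4% were called lower and 16.5% higher in that comparison. Of the genes called there 43.6% were higher in this scaling, against 51.5% under quantile normalization, 51.6% under normexp and 51.4% in the authors' deposited table. Groups did not overlap for 5 of the 9 genes, against 25.3% of all genes. By chain length, 2 of 4 long-chain, 2 of 3 medium-chain and 2 of 2 Acsf genes were lower. In fed livers 1 of the 9 genes, Acsm3, was lower and none higher, against 2.25% lower and 1.77% higher among all genes. None of the 9 was free of overlap between fed genotypes, where 3.69% of all genes were. The 9 genes had a median log2 difference of -0.66 in fasted and -0.08 in fed livers, against -0.03 and 0.01 over all genes.

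With fasting, 4 of the 9 genes rose in LWT livers (Acsl1, Acsm3, Acsf2 and Acsf3) and 2 fell (Acsl4 and Acsm1), where 23.1% of all genes were called higher and 21.2% lower. In LKO livers none rose and 6 fell (Acsl1, Acsl4, Acsl5, Acsm1, Acsm5 and Acsf3), where 23.0% of all genes were called higher and 26.7% lower. Groups did not overlap for 5 of the 9 genes with fasting in LWT, against 34.3% of all genes, and for 3 of the 9 with fasting in LKO, against 27.3%. The median log2 response of the 9 genes was -0.35 in LKO and 0.21 in LWT, against -0.04 and 0.01 over all genes. The difference of the responses was called below 0 for 5 of the 9 genes (Acsl1, Acsl5, Acsm3, Acsm5 and Acsf3) and above 0 for none, against 11.1% and 7.50% of all genes. With slide as a block Acsf2 was called as well (-0.23, adjusted p = 0.0246), which made 6 of the 9. The comparisons share groups: the fasted LWT animals, for example, enter the fasting response in LWT, the fasted genotype difference and the difference of the responses, so these counts are not independent of each other.

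**Figure D2:**
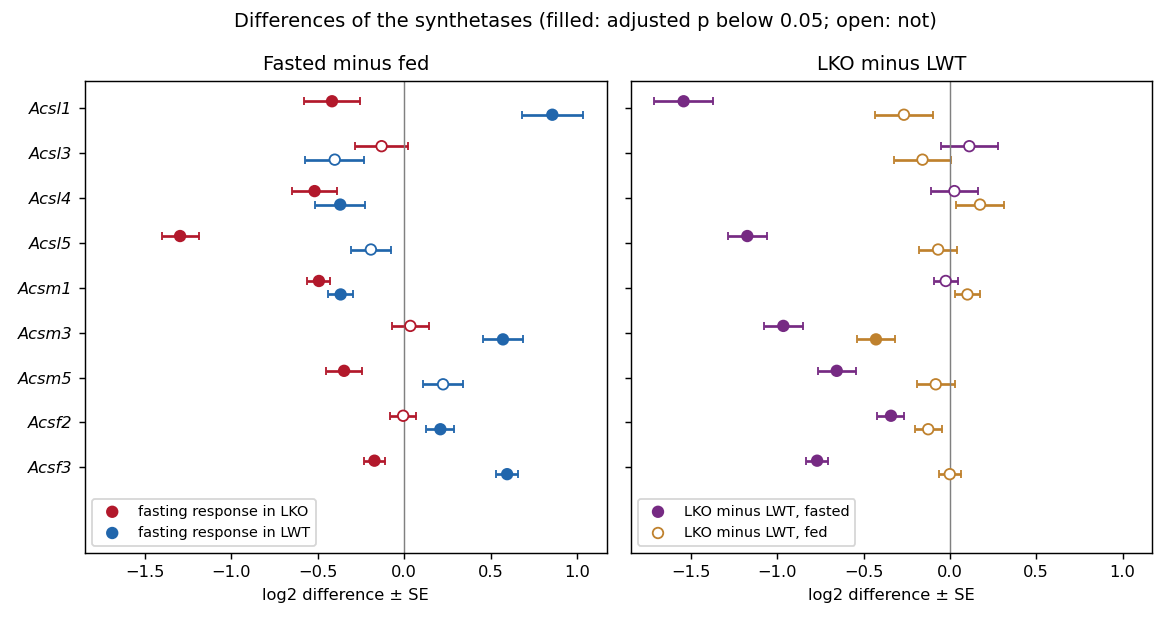
Log2 differences with SE for the 9 genes (rows): fasted minus fed in LKO and LWT livers (left panel) and LKO minus LWT in fasted and fed livers (right panel), filled where the adjusted p was below 0.05. With fasting 6 of the 9 genes fell in LKO, while in LWT 4 rose and 2 fell, and 6 of the 9 were lower in fasted LKO against 1 in fed LKO.

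Markers of other liver cells moved with the fasted genotype difference. All 7 endothelial markers were lower in fasted LKO livers, with a summed log2 level between 5.36 and 5.66 in fasted LKO and between 5.89 and 6.49 in fasted LWT, and their part in the results for the synthetases was not tested. None of the 10 hepatocyte markers was called between genotypes in either state. Of 6 measured macrophage markers 1 was lower in fasted LKO, with summed levels between 5.76 and 6.13 in fasted LKO and between 5.36 and 6.18 in fasted LWT. None of 7 stellate and none of 4 lymphocyte markers was called there, 1 of 5 cholangiocyte markers was higher, 1 of 3 red blood cell markers was higher and 1 of 3 adipocyte markers was lower. The summed adipocyte markers lay between -0.90 and -0.29 in fasted LKO and between 0.06 and 1.20 in fasted LWT, and the part of this in the results was not tested either. The summed lymphocyte markers did not overlap between fasted genotypes, at 3.27 to 3.40 in fasted LKO and 3.43 to 3.48 in fasted LWT, and their part was not tested. With fasting, 1 endothelial marker rose and 3 fell in LKO, and 4 rose in LWT. Of the 10 hepatocyte markers 5 rose and 1 fell in LKO, and 3 rose and 1 fell in LWT. Of the 7 stellate markers 1 rose and 4 fell in LKO, and 2 rose and 3 fell in LWT. Among all genes 23.0% were called higher and 26.7% lower with fasting in LKO, and 23.1% higher and 21.2% lower in LWT. The part of these marker changes in the results was not tested. The defining markers Adipoq of adipocytes and Cd79a of B cells did not pass the filter on dim signal. Emr1, listed as a macrophage marker, was not among the gene names of the array, while the 6 others of that list, Adgre1 among them, were measured.

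The probes of a gene did not always change alike. Over the 28138 probes kept, 36.3% were called between fasted genotypes, 3.82% between fed genotypes, 41.2% with fasting in LWT, 46.5% with fasting in LKO and 16.1% for the difference of the responses. For each of 13 further probes of the 9 genes that were well above background in all 22 animals, its log2 level minus that of the representative probe was compared between fasted LKO and fasted LWT animals by a two-sided exact permutation test, whose smallest possible p was 0.00433 and which was chosen after the probe values had been seen. In 10 of the 13 the gap between probes differed by genotype at an adjusted p below 0.05 over the 13. Such a difference can arise from a change on either probe. The further Acsf3 probes were not called themselves, and which probe of a gene reads it better was not tested.

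For Acsl1 the 3 probes agreed in sign and differed in size. The upstream probe is annotated to another transcript than the other 2 and was far dimmer. Its mean was -2.64 in fasted LKO and 0.21 in fasted LWT livers, against 6.91 and 8.45 on the representative. Its SD in fed LWT livers was 1.01. The fasted genotype difference was -1.54 on the representative, -1.82 on the second probe (SE 0.21) and -2.85 on the upstream probe (SE 0.33), and the gap of the upstream probe to the representative differed by -1.31 between genotypes (exact permutation, adjusted p = 0.00625). Acsf2 differed more. Its middle probe read from -3.90 to -2.75 in fasted LKO livers, against -1.52 to -1.22 in fasted LWT livers, and its upstream probe read from -2.87 to -2.30, against -1.59 to -0.83. On both the genotypes were separate, with log2 differences of -1.71 (SE 0.16) and -1.42 (SE 0.13), against -0.34 on the representative. The gaps to the representative differed by -1.37 and -1.08 (exact permutation, adjusted p = 0.00625 each). On these 2 probes Acsf2 also fell with fasting in LKO (-0.92 and -0.65) and rose in LWT (0.42 and 0.46), and the difference of the responses was called (-1.34 and -1.11). The representative shares a run of 16 bases with 1 probe of another gene name and with 2 promoter windows of the RefSeq table, and neither other Acsf2 probe does. Runs shared with a probe of another gene name occur in 19.4% of all array probes, and their part in the reading was not tested. The representative averaged 3.36 in fasted LWT livers, against -1.37 on the middle and -1.30 on the upstream probe. Which of these probes reads Acsf2 better was not tested. The Acsf2 values in the main counts, the group order and the correlations are those of the representative.

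The Acsl5 probes disagreed in direction between fasted genotypes, while the Acsl4 probes shared a sign there and differed in size and call. The downstream Acsl5 probe, annotated to a clone transcript, read from -0.79 to -0.28 in fasted LKO livers, against -1.34 to -0.60 in fasted LWT livers, and was called higher in LKO by 0.31 (SE 0.12), where the representative gave -1.17. With fasting in LKO it was called higher by 0.32 (adjusted p = 0.0232), where the representative gave -1.30. Its difference of the responses was not called (0.24, adjusted p = 0.367), where the representative gave -1.10. A further Acsl5 probe on the opposite strand was well above background in 0 of 22 animals and was not tested. Both upstream Acsl4 probes were called higher in fasted LKO livers (0.37 and 0.41, SE 0.15 and 0.14), where the representative gave 0.03. The gaps differed by 0.35 and 0.38 (exact permutation, adjusted p = 0.00625 each). With fasting the 3 Acsl4 probes all fell in both genotypes. The second Acsl3 probe was not called in any comparison. It gave 0.07 with fasting in LKO and -0.22 in LWT, where the representative gave -0.13 and -0.40.

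Among the medium-chain genes the Acsm1 probes gave like values in all comparisons, with fasting responses of -0.50 in LKO and -0.35 in LWT on the second probe. The second Acsm3 probe, annotated to a clone transcript, was lower in fasted LKO (-0.86, SE 0.17) and fed LKO (-0.72, SE 0.17). It rose with fasting in LKO as well (0.69, SE 0.16), next to 0.83 in LWT (SE 0.18), and its difference of responses of -0.14 (SE 0.24) was not called. The second Acsm5 probe was lower in fasted LKO (-0.38, SE 0.09) and fell with fasting in LKO (-0.60, SE 0.08). With fasting in LWT it gave -0.23 (adjusted p = 0.0538) where the representative gave 0.23, and neither was called. Of the 3 further Acsf3 probes 1 was well above background in 5 of 22 animals only, and none of the 3 was called in any comparison. They were far dimmer, with means of -4.70, -3.18 and -2.52 in fasted LWT livers, against 4.46 on the representative. The probes at -4.70 and -3.18 are annotated to clone transcripts. The probe at -2.52 is annotated to the same transcript as the representative and gave -0.27 between fasted genotypes (SE 0.16, adjusted p = 0.207). Averaging the probes of a gene weighs dim and bright ones alike. When all kept probes of a gene were averaged, Acsf3 was no longer called between fasted genotypes (-0.26, adjusted p = 0.109), while the other 5 calls held. Acsl5 was then -0.43 between fasted genotypes (adjusted p = 0.000684), -0.49 with fasting in LKO (adjusted p = 7.09e-05) and -0.43 for the difference of the responses (adjusted p = 0.0213), against -1.17, -1.30 and -1.10 on the representative.

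**Figure D3:**
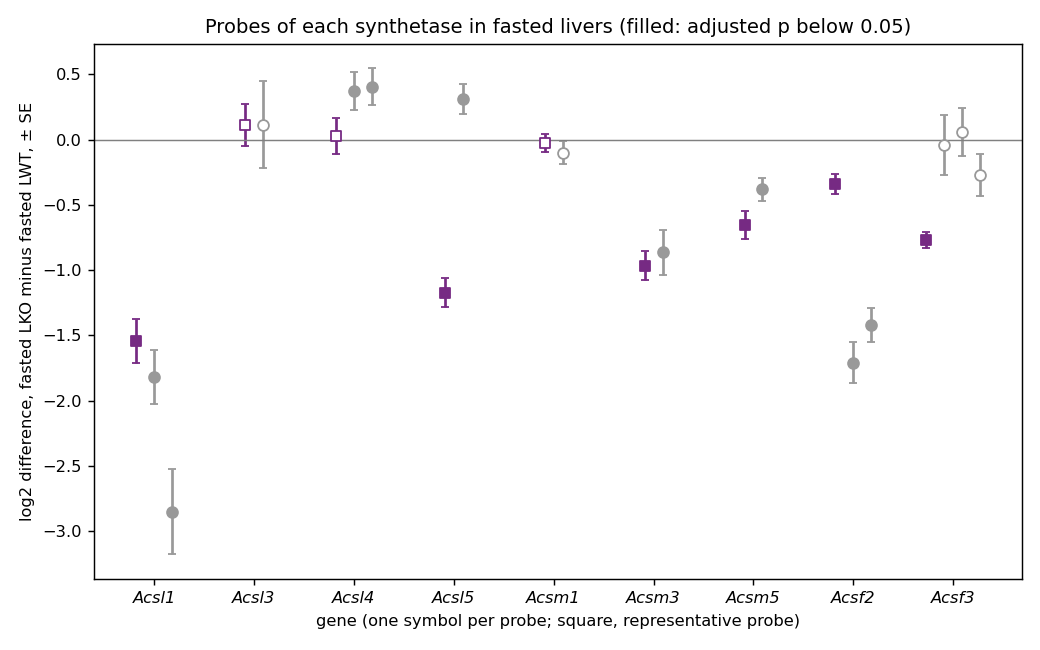
Log2 difference with SE between fasted LKO and fasted LWT livers (y axis) for each kept probe of the 9 genes (x axis), with the representative probe as a square and filled symbols where the adjusted p over all probes was below 0.05. The 3 probes of Acsl1 lie between -2.85 and -1.54, the probes of Acsl5 lie on opposite sides of 0, and the 2 further Acsf2 probes lie far below its representative.

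Across the 22 animals Acsl1, Acsm3, Acsm5 and Acsf3 ran together. Pearson's r of log2 levels, given as a description over animals that share groups and array scaling, was 0.895 between Acsl1 and Acsm3, 0.867 between Acsl1 and Acsf3 and 0.856 between Acsl1 and Acsm5. Acsm1 ran with Acsl5 (0.648) and Acsl4 (0.584). Acsl1 and Acsm1 were close to unrelated (-0.119), and r of Acsl3 with the other genes ran from -0.421 with Acsl1 to 0.357 with Acsm1.

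By the same measure over 22 animals, the genes most like Acsl1 were Tmem134, a transmembrane protein gene (0.946), Acaa1b, a peroxisomal thiolase gene (0.944), and Aldh1a1, a retinaldehyde dehydrogenase gene (0.942). Genes most like Acsm3 included Aldh3a2, a fatty aldehyde dehydrogenase gene (0.965), and Ttc30b (0.952). For Acsl5 they were Usp10, encoding a deubiquitinase (0.968), Idh1, encoding cytosolic isocitrate dehydrogenase (0.955), and Hsd17b12, encoding a reductase of fatty acid elongation (0.952). Acsf3 was most like Suox, encoding sulfite oxidase (0.963), Tomm70a, encoding a mitochondrial import receptor (0.957), and Coq3, encoding an enzyme of coenzyme Q synthesis (0.95). Acsm1 was most like Yif1b (0.942), Dpm2 (0.936) and Pmepa1 (0.935), and Acsm5 most like Maob, encoding a monoamine oxidase (0.92), Hnf4aos (0.918) and Hpgd (0.915). Acsl4 was nearest to Bud31 (0.882), Tatdn1 (0.864) and Ranbp1 (0.85), and Acsl3 to Dync2h1 (0.798), Chml (0.789) and Hspb11 (0.786). Acsf2 was nearest to Cacna1h (0.863), Olfr279 (0.835) and Flot2 (0.825). The Acsf2 values rest on its representative probe alone, and its other probes changed differently.

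Of 16 other genes of acyl-CoA synthetase families, 12 were tested, and Acsl6, Acsm4, Acsbg2 and Slc27a6 did not pass the filter on dim signal. In fasted livers 3 of the 12 were lower in LKO and 2 higher, with a median of -0.06. Among all genes 21.4% were called lower and 16.5% higher there. Acss3, encoding a mitochondrial short-chain synthetase, was lower, with a log2 difference of -2.34 (SE 0.33, adjusted p = 1.06e-05). Slc27a1 and Slc27a2, encoding transport proteins with very-long-chain synthetase activity, were lower as well (-0.92, SE 0.10, and -0.80, SE 0.08), and the medium-chain gene Acsm2 was higher by 0.41 (SE 0.15, adjusted p = 0.0408). In fed livers 1 of the 12, Slc27a2, was lower (-0.32, SE 0.08, adjusted p = 0.0244), against 2.25% of all genes.

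With fasting, 2 of the 12 rose and 5 fell in LKO, and 3 rose and 4 fell in LWT. Among all genes 23.0% were called higher and 26.7% lower in LKO, and 23.1% higher and 21.2% lower in LWT. Aacs, encoding the cytosolic acetoacetyl-CoA synthetase, fell by 2.69 on the log2 scale in LKO (SE 0.34) and by 2.80 in LWT (SE 0.37). Acss2, encoding the cytosolic acetyl-CoA synthetase, fell by 1.19 in LKO (SE 0.22) and by 1.00 in LWT (SE 0.24), and Acsm2 fell by 1.07 in LKO (SE 0.15) and by 1.21 in LWT (SE 0.16). The difference of the responses was not called for any of these 3, and it was called below 0 for Acss3 (-1.45), Slc27a1 (-0.90) and Slc27a2 (-0.49). Slc27a1 rose with fasting in both genotypes, by 0.42 in LKO and 1.32 in LWT.

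**Figure D4:**
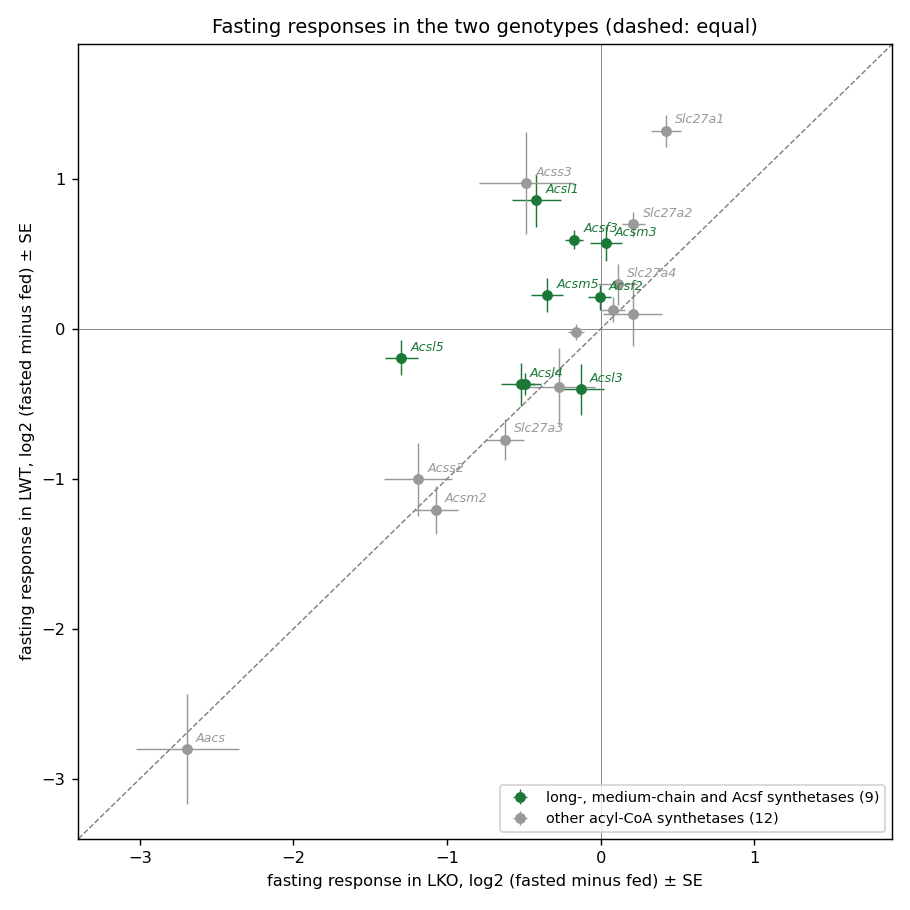
Fasting response in LKO livers (x axis) against that in LWT livers (y axis), as log2 differences with SE, for the 9 genes and for the 12 other synthetase genes, with a dashed line where both would be equal. Acsl1, Acsl5, Acsm3, Acsm5 and Acsf3 lie above the line, as do Acss3, Slc27a1 and Slc27a2, whereas Aacs, Acss2 and Acsm2 lie near it.

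The enzymes that use or release acyl-CoA were counted for the same animals. Among all genes 21.4% were called lower and 16.5% higher in fasted LKO, and 2.25% lower and 1.77% higher in fed LKO. All 6 genes of the carnitine list (Cpt1a, Cpt1b, Cpt2, Slc25a20, Crot and Crat) were lower in fasted LKO (median -1.80). The 3 genes of that list with the largest called change in any comparison were Slc25a20, the carrier of acylcarnitines, Cpt1b and Crat. They gave -2.52 (SE 0.10), -1.90 (SE 0.17) and -1.70 (SE 0.16) in that order. Of 8 acyl-CoA dehydrogenases 7 were lower and none higher in fasted LKO, with -1.50 for the very-long-chain gene Acadvl (SE 0.05), -1.14 for the long-chain gene Acadl (SE 0.08) and -1.05 for the medium-chain gene Acadm (SE 0.09). In fed livers 4 of the 8 dehydrogenases were lower, among them Acadvl (-1.05) and Acadl (-1.02), while Acadm gave -0.01 (adjusted p = 0.967).

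Thioesterases, which split acyl-CoA again, had 7 of 11 genes lower and 3 higher in fasted LKO, with -3.55 for Acot3 (SE 0.50), -2.35 for Acot2 (SE 0.19) and -1.67 for Acot1 (SE 0.27). Acyltransferases that place acyl chains on glycerol had 8 of 13 lower and none higher, led by Agpat9 (-3.38, SE 0.32), with -0.75 for Agpat6 (SE 0.10) and -0.46 for Agpat2 (SE 0.09). Of 5 tested acyl-CoA binding protein genes 3 were lower and 2 higher. Dbi, whose product buffers long-chain acyl-CoA in the cytosol, was lower in fasted LKO (-1.08, SE 0.10) and fell with fasting in both genotypes, by 1.71 in LKO and by 0.62 in LWT. These lists share all samples with the 9 genes and are described by their counts.

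The promoters of the 9 genes were searched in the RefSeq windows of GRCm38.p6, which run from 250 bases before to 50 bases after a start site. The motif was 2 copies of AGGTCA in the same direction with 1 base between the copies, on both strands, with at most 2 mismatches over the 12 fixed letters. None of the 10 windows of the 9 genes held it, and 3.86% of all 32851 promoters did. This says only that these letters are not in these windows.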

How the data were processed

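Liver RNA of 22 mice was measured on 24 one-colour Cy3 arrays spread over 3 slides, and replicates are separate animals per the labels. The deposited scanner output gives intensities from Agilent Feature Extraction 10.10.1.1. Its processed signal was made with spatial and multiplicative detrending on and local background correction off, per the file headers. The authors' deposited log2 table of 31356 probes, normalized by a method not given in the sources used here, served as an alternative, and both columns of a twice-hybridised animal are identical in it.

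The main values were log2 processed signal minus the 75th percentile of each array, and arrays of 1 animal were averaged. Control spots were left out. A probe was kept if it was well above background in at least 5 animals, which left 28138 probes and 17215 genes. The kept probe of highest mean level represented its gene. limma 3.58.1 in R 4.3.3 fitted 1 mean per group over all 22 animals, and p-values were adjusted by Benjamini-Hochberg over all genes, or over all kept probes, with a threshold of 0.05. Exact permutation tests used SciPy 1.17.1. The fit was tested on simulated data. Arrays have no read depth, and their number limits the precision.

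All probes of the 9 genes are described. From the other synthetases the 6 with the largest called change in any comparison were named, from each further list the 3 largest, and for each of the 9 genes the 3 with the highest Pearson correlation, clone and predicted names left out; a few genes that these rules select are not reported here. The 9 genes and all lists were chosen with earlier results of these data known. The 32 alternatives changed normalization, background correction, source of values, choice of probe, filter, repeat arrays, slide, replicate block and samples in the fit, or left out each animal. The replicate numbers of the labels did not pair the animals: 4 of 21 same-numbered pairs correlated above 0.1, with a range from -0.181 to 0.177.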

Additional observations from a re-analysis of the deposited data

Results flagged for a closer look

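Of 36 groups of animals tested for a sample far from the others, 3 held one, where chance alone gives about 1 in 20 groups. Acsm1 had a log2 level of 4.83 in fasted LKO replicate 3, below the other 5 animals of that group at 5.16 to 5.24. Fed LKO replicate 3 lay below the rest of its group for both Acsm3 (3.06, others 3.65 to 3.83) and Acsm5 (3.03, others 3.55 to 3.75).

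The response to fasting differed between genotypes by the test of the difference itself for 5 of the 9 genes. The LKO response minus the LWT response was -1.28 for Acsl1, -1.10 for Acsl5, -0.54 for Acsm3, -0.57 for Acsm5 and -0.77 for Acsf3. Without fed LKO replicate 3 it was -1.44, -1.11, -0.64, -0.67 and -0.77 for the same genes in that order, and each stayed below the threshold.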

How the results depend on the processing

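Over 32 alternatives, 1338 of 1431 values of single genes kept their direction and their side of the threshold, 49 lost and 13 gained a call, and 31 changed sign. The sign changes concerned 9 results that were called neither before nor after, with adjusted p of at least 0.466. The number of the 9 genes called ranged from 4 to 8 with fasting in LWT (main 6), from 4 to 7 in LKO (6), from 5 to 6 between fasted genotypes (6) and from 4 to 6 for the difference of the responses (5). Between fed genotypes it was 1 and became 0 without a filter on dim probes, with slide as a block, or with only the groups of the comparison, and ranged from 0 to 1 when 1 animal was left out. Genes called between fed genotypes fell to 360 with only those groups in the fit, against 692, and the cause was not tested. Under quantile normalization 51.1% of the genes called for the difference of the responses were higher, under normexp 50.8% and 50.5% with the deposited values, against 40.3% in the main scaling. With the mean of all probes Acsf3 lost its calls with fasting in LWT (0.18, adjusted p = 0.266), with fasting in LKO (-0.17, 0.237), between fasted genotypes (-0.26, 0.109) and for the difference of the responses (-0.36, 0.17), and Acsm3 lost the last one (-0.34, 0.252). That mean gained calls for Acsm3 with fasting in LKO (0.36, 0.0274) and for Acsf2 with fasting in LKO (-0.52, 5.75e-05) and in the difference of the responses (-0.89, 0.000121). The sign turned for Acsm5 with fasting in LWT (-0.0014), Acsl5 between fed genotypes (0.0035), Acsf3 between fed genotypes (0.1002) and Acsl4 in the difference of the responses (0.006). Acsf2 with fasting in LKO became 0.0097 under quantile normalization, 0.0142 under normexp and 0.0155 in the deposited table, and Acsm1 between fasted genotypes 0.0553, 0.0482 and 0.0701 in that order. Acsf3 between fed genotypes became 0.0088 under quantile normalization, 0.0072 in the deposited table and 1e-04 with slide as a block. Leaving out 1 animal in turn changed the sign at least once for Acsm3 with fasting in LKO (lowest -0.0728, highest 0.0824), Acsf2 with fasting in LKO (-0.0504 to 0.0263), Acsm5 between fed genotypes (-0.1252 to 0.0181), Acsf3 between fed genotypes (-0.0262 to 0.05), Acsl4 between fasted genotypes (-0.0514 to 0.1558) and Acsm1 between fasted genotypes (-0.05 to 0.0396). With the replicate number as a replicate block, 5 of the 9 genes were called with fasting in LWT, where Acsf2 lost its call (0.21, adjusted p = 0.0677), and no other call of the 9 genes changed.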
